A study of Mus musculus with 6 samples.

Results

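AP-1 and Egr immediate early genes were followed in macrophages of lean and obese mouse fat. The group holds 10 genes: Fos, Fosb, Fosl2, Jun, Junb, Jund, Atf3, Egr1, Egr3 and Ier2. Each was found through the gene symbols of the array's annotation. A gene is read here by its transcript cluster, a set of probes along its exons, and of several clusters the brightest on average was used. Of the 10, 9 had a cluster of their own among 30142 genes tested. Junb shared its only cluster with the neighbouring annotation Prdx2, so that cluster is described separately and is not counted as Junb.

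The samples, F4/80+ adipose tissue macrophages, came from epididymal fat; the mice were C57BL/6J males and 22 weeks old. No genotype beyond the strain was labelled, and the groups differed in the food they had received for 16 weeks: normal chow (NCD, lean) or a diet with 60% fat (HFD, obese). Cells were freed by collagenase digestion of the fat and pulled out with an antibody to F4/80 on magnetic beads, in both groups alike. Each group had 3 pools with 1 array each, of 20 mice per NCD pool and 10 mice per HFD pool, so single mice were not measured and the pool sizes differed between the diets. Values are log2 expression as deposited, and differences are log2 HFD minus NCD ± standard error from limma, called where the Benjamini-Hochberg adjusted p over all genes was below 0.05.

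AP-1 is a dimer of basic leucine zipper proteins: a Fos protein or an Atf protein pairs with a Jun protein, and the pair binds the TPA response element or the cAMP response element. Egr proteins are zinc finger factors that bind GC-rich sites. The genes are called immediate early because growth factors, cytokines, stress and cell handling raise their transcripts within minutes, through factors already in the cell, and because the transcripts decay fast. In macrophages they belong to the first wave after activation.

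RefSeq promoters, read for GRCm38.p6, are shown for 3 genes that fell and, beside them, for Atf3, which was not called. The table held 7 of the 10 genes. The 250 bases before the annotated start are given for Fos (chr12:85473640-85473889, plus strand) and Jun (chr4:95052223-95052472, minus strand), which both fell, and for Atf3 (chr1:191183334-191183583, minus strand). Of Fosb, the gene with the deepest fall, 30 bases (chr7:19310081-19310110, minus strand) are given, since its annotated gene reaches upstream of the start used here. All are written 5′ to 3′ on the gene's strand. Capitals mark the core of the cAMP response element (TGACG), the AP-1 variant TGACATCA, the Egr site GCGGGGGCG and the TATA box TATAAA, on either strand.
Fos: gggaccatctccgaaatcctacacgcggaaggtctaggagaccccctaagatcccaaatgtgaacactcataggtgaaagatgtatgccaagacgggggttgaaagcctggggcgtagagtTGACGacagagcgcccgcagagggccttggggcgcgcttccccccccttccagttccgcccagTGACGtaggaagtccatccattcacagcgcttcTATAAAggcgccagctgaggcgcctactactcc
Fosb site: gcgggTGACGcaagcGCGGGGGCGggtccc
Jun: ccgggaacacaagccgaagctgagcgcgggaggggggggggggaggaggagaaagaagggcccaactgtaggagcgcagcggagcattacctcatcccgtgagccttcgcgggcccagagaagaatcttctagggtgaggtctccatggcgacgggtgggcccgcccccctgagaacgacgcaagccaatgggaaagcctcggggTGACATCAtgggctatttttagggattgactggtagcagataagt
Atf3: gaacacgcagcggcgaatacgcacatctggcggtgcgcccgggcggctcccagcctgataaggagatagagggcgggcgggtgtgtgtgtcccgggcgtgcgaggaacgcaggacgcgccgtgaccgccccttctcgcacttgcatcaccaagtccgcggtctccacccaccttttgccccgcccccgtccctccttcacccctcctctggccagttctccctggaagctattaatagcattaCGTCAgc

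The core TGACG lay in 4 of the 7 promoters (Atf3, Fos, Fosb and Junb), against 17.8% of 32851 promoters in the table. In Fos it occurred at 66 to 62 and at 129 to 125 bases before the start, and the TATA box lay at 33 to 28. In Fosb it lay at 60 to 56, next to an Egr site at 50 to 42. The Egr site was held by Fosb and Fosl2 and by 2.57% of all promoters. The variant TGACATCA was held by Jun, at 45 to 38 bases, and by 2.93% of all. In Atf3 the core lay on the opposite strand at 7 to 3 bases. The whole palindrome TGACGTCA, which contains the core, the TPA response element (TGACTCA, or TGAGTCA on the other strand) and the CArG box of serum response factor were in 0 of the 7 windows, against 1.55%, 4.46% and 1.47% of all promoters. These are letter matches in a short window and were not set against binding data.

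Of the 9 genes with their own cluster, 6 fell after HFD (Fosb, Jun, Ier2, Egr1, Jund and Fos), 0 rose and 3 were not called (Fosl2, Egr3 and Atf3). The falls ran from 2.11-fold to 8.0-fold. Among all genes tested 7.83% were called, 2.87% lower and 4.96% higher; among the 15747 genes above the array's background level, 4.59% were called lower. On 7 of the 9 genes all 3 HFD arrays lay below all 3 NCD arrays, which held for 13.0% of all genes. The median difference of the 9 was −1.35, beside 0.01 over all genes. Since the 10 genes were chosen with earlier results of these data known, these comparisons describe them and are no test. The count of 6 was 1 without NCD2, 3 without HFD1 or HFD2 and 2 without HFD3, while the share of all genes called lower was 0.524%, 1.05%, 0.415% and 0.411% without those arrays in turn; it was 6 without NCD1 or NCD3. The smallest exact permutation p that 3 against 3 arrays allow is 0.1, so calls for single genes rest on the fit across genes.

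Which libraries stood apart bears on what follows. NCD3 had the lowest levels in its diet of most macrophage genes on the list. An example is Adgre1, which encodes the selection antigen (15.05, against 16.08 on NCD1 and 15.93 on NCD2). Mertk was the exception, at 12.58, 12.70 and 12.65 on NCD1 to NCD3. NCD3 also had the highest sums of endothelial and of smooth muscle markers. HFD3 had a neutrophil marker sum of 14.49, against 9.92 and 9.87 on HFD1 and HFD2. Macrophage genes such as Lyz2 (18.69 to 18.97) and Csf1r (15.08 to 15.76) were bright on every array. The macrophage list still differed between the diets. Of 8 measured genes, 2 were called higher after HFD (Cd68, 1.20 ± 0.22, and Fcgr1, 1.43 ± 0.21). Mertk was called lower (−0.49 ± 0.10) and 5 were not called. Adgre1, not called (0.91 ± 0.27, adjusted p = 0.0924), was higher on every HFD than on every NCD array. Over all genes 4.96% were called higher and 2.87% lower. In pooled bulk samples, fewer cells of a type and less RNA per cell cannot be told apart.

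**Figure D1:**
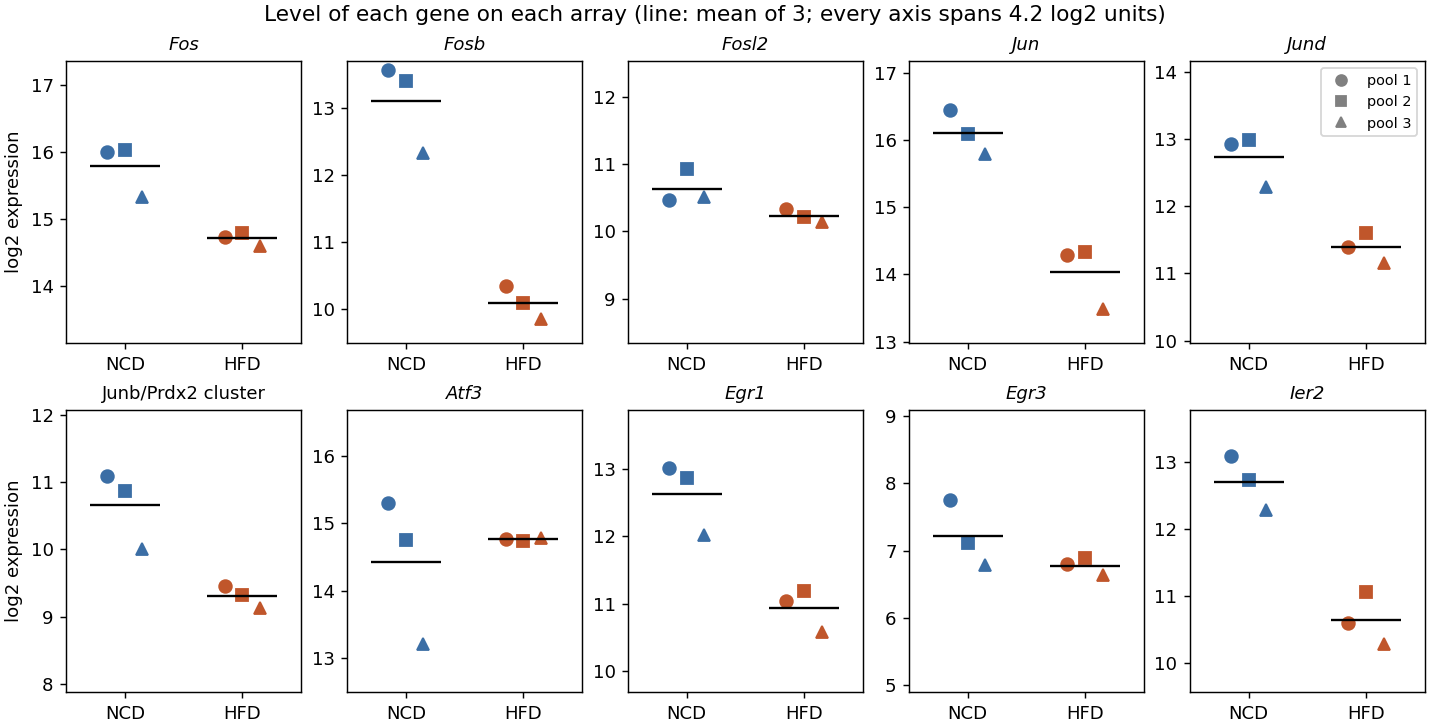
Log2 expression of the 9 genes and of the cluster annotated to both Junb and Prdx2, on each of 3 NCD (blue) and 3 HFD (orange) arrays; lines are means and symbols tell the pools apart. The groups are separate in Fos, Fosb, Fosl2, Jun, Jund, Egr1, Ier2 and the shared cluster, and overlap in Atf3 and Egr3; NCD3 is the lowest NCD array in every panel but Fosl2.

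The Fos proteins supply the AP-1 partner that cannot pair with itself. Fos, the founding member, had levels of 16.01 (NCD1), 16.04 (NCD2) and 15.33 (NCD3), against 14.74 (HFD1), 14.80 (HFD2) and 14.60 (HFD3). Levels of the other genes are given in the same order of arrays. All HFD arrays were below the lowest NCD array, NCD3, by 0.53 or more. Fos fell 2.11-fold (−1.08 ± 0.20, adjusted p = 0.0286). The Fos call was lost without NCD2, HFD1, HFD2 or HFD3, at differences of −1.31 to −0.95 over all fits that left out 1 array.

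Fosb, a close relative of Fos, had the deepest fall of the group. Its levels were 13.56, 13.40 and 12.33 on the NCD arrays and 10.34, 10.09 and 9.85 on the HFD arrays. The gap between the lowest NCD and the highest HFD array was 1.98, wider than the NCD arrays' own range of 1.23. Fosb fell 8.0-fold (−3.00 ± 0.33, adjusted p = 0.00734). The Fosb call held without each array in turn, at −3.38 to −2.77, and its difference was the 35th lowest of the 30142 genes. Within an array the Fosb level minus the Fos level was −2.69 ± 0.28 (SD, n = 3) on NCD and −4.62 ± 0.19 on HFD arrays. The difference was lower on every HFD than on every NCD array; the pair is 1 of 5 compared after their values were seen, each with an exact two-sided permutation p of 0.1, the smallest possible (0.1 adjusted over the 5).

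Fosl2 (Fra-2) lacks the strong activation domain of Fos and Fosb and turns over more slowly. It was at 10.46, 10.93 and 10.52 on NCD and 10.34, 10.22 and 10.13 on HFD arrays. The groups did not overlap, but the gap was 0.12. The difference of −0.41 ± 0.16 (95% interval −0.78 to −0.03 before adjustment) was not called (adjusted p = 0.174).

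Jun proteins pair with Fos proteins or with one another. Jun, the member with the strongest activation domain, was at 16.45, 16.09 and 15.79 on NCD arrays and at 14.29, 14.34 and 13.49 on HFD arrays. HFD3 was the lowest array and the groups were 1.45 apart at their nearest. Jun fell 4.2-fold (−2.07 ± 0.27, adjusted p = 0.0111); without 1 array the difference ran from −2.23 to −1.79, and the call was lost only in the fit without NCD2.

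Jund is the Jun protein present in most resting cells. Its levels were 12.93, 12.98 and 12.28 on NCD arrays and 11.39, 11.61 and 11.16 on HFD arrays. Here too NCD3 and HFD3 were the lowest of their diets, and the groups stayed 0.68 apart. Jund fell 2.54-fold (−1.35 ± 0.22, adjusted p = 0.0195), a call lost without NCD2, HFD1, HFD2 or HFD3.

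Junb, which can restrain Jun and is induced with Fos, could not be read alone. The cluster annotated to Junb and to the peroxiredoxin gene Prdx2 was at 11.09, 10.87 and 10.01 on NCD and 9.45, 9.33 and 9.13 on HFD arrays. It was lower on every HFD array than on NCD3, the lowest NCD array. In a fit that kept clusters with several symbols, added after the data were seen, its difference was −1.36 ± 0.28 (adjusted p = 0.0389 over 32288 features). Which of the 2 genes moved was not told apart here.

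Atf3, a stress-induced partner of Jun that often represses, was not called. Its NCD levels were 15.30, 14.74 and 13.21, a range of 2.1, and its HFD levels 14.77, 14.74 and 14.78, a range of 0.04. The HFD values lay inside the NCD range. The difference was 0.35 ± 0.49 (95% interval −0.84 to 1.53, adjusted p = 0.743), which leaves room for a fall or a rise. It was −0.26 without NCD3 (adjusted p = 0.445) and 0.79 without NCD1. Within an array the Atf3 level minus the Jun level was −2.58 to −1.15 on NCD and 0.40 to 1.29 on HFD arrays; levels of different genes depend on their probes, so only the shift of 2.42 between diets can be read, and this pair is another of those 5.

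**Figure D2:**
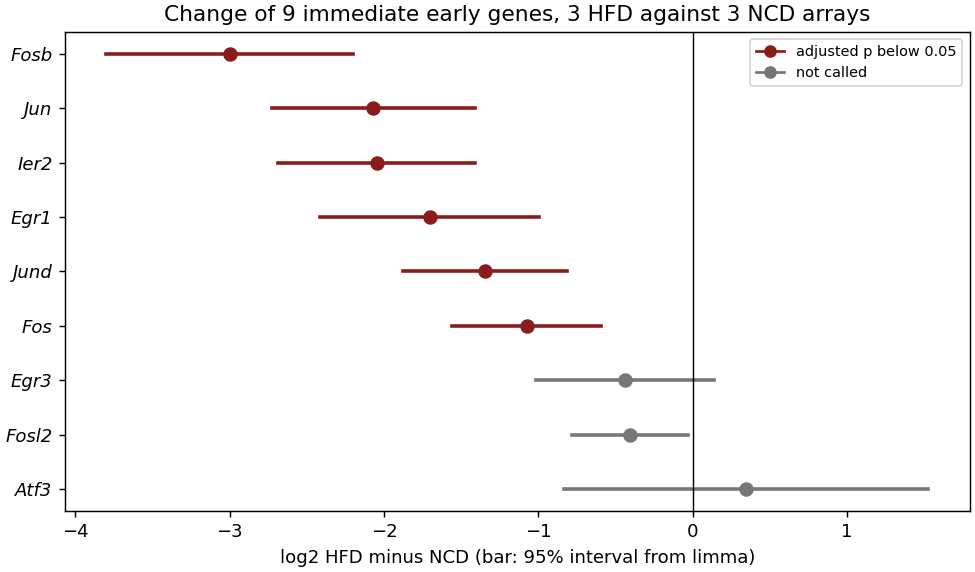
Log2 difference (HFD minus NCD, x axis) of the 9 genes with the 95% interval from limma before adjustment; dark red marks genes with an adjusted p below 0.05. The 6 called genes lie between −3.00 and −1.08, and the interval of Atf3 runs from −0.84 to 1.53.

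Egr1, the zinc finger factor induced by growth factors and by macrophage activation, was at 13.02, 12.87 and 12.02 on NCD arrays. On HFD arrays it was at 11.04, 11.19 and 10.57. The nearest arrays of the diets, NCD3 and HFD2, were 0.83 apart. Egr1 fell 3.26-fold (−1.70 ± 0.30, adjusted p = 0.0232), a call lost without NCD2, HFD1, HFD2 or HFD3.

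Egr3, a relative of Egr1, had 3 clusters, all dim. The one used was at 7.76, 7.11 and 6.78 on NCD and 6.80, 6.90 and 6.64 on HFD arrays, close to the background level of 6.23. The groups overlapped through NCD3. The difference was −0.44 ± 0.24 (adjusted p = 0.333), and the other clusters gave −0.35 and −0.52.

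Ier2, a short nuclear protein of the same early wave, belongs to neither family. It was at 13.08, 12.72 and 12.28 on NCD and 10.60, 11.06 and 10.29 on HFD arrays. The diets were 1.22 apart at the nearest arrays, more than the range within NCD (0.80) or HFD (0.77). Ier2 fell 4.13-fold (−2.05 ± 0.27, adjusted p = 0.0108), and the call was lost without NCD2 or HFD3.

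The lowest array of each diet was the same for most genes, while the full order of arrays varied. NCD3 was the lowest NCD array for 8 of the 9 genes, the exception being Fosl2, and HFD3 the lowest HFD array for 8 of 9, the exception being Atf3. Averaged over the 9 genes, the deviation from each gene's own mean was 1.01, 0.83 and 0.12 on NCD1 to NCD3. It was −0.57, −0.50 and −0.88 on HFD1 to HFD3. The NCD3 mean includes the low value of Atf3, −1.39. The SD over the 3 arrays was larger in NCD than in HFD for 8 of the 9 genes, Jun being the exception. The median SD of the 9 was 0.40 in NCD and 0.22 in HFD, against 0.20 and 0.11 over all genes above background. Jund and Fos kept closest to the common profile (root mean square difference of 0.10 and 0.15), and Fosb (0.86) and Atf3 (0.91) were farthest.

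Markers of other cells moved with the diets as well. Beside the counts below, 2.87% of all genes were called lower and 4.96% higher. The 8 mesothelial markers all fell; their level, summed on the linear scale and given as log2, was 11.04 to 11.97 on NCD and 8.77 to 8.95 on HFD arrays, and 5 of the 8 had a mean below background. Of 10 smooth muscle and pericyte markers 7 fell and 0 rose, with sums of 15.52 to 17.49 on NCD and 12.15 to 13.61 on HFD arrays and 0 below background. Of 10 endothelial markers 0 were called by limma (8 were lower at an unadjusted p below 0.05), with sums of 16.31 to 18.51 on NCD and 15.53 to 16.85 on HFD arrays and 0 below background. Of 7 fibroblast markers 5 rose and 0 fell, with a median of 1.41 and 1 below background; their sums, 12.99 to 13.83 on NCD and 13.18 to 13.94 on HFD arrays, overlapped. Of 8 mast cell and eosinophil markers 3 rose and 0 fell, with sums of 9.25 to 9.31 on NCD and 9.82 to 10.62 on HFD arrays and 3 below background. Of 9 lymphoid markers 0 were called (0 at an unadjusted p below 0.05) and 5 were below background, but their sum stood apart on NCD1, at 13.28 against 10.77 to 11.66 on the other arrays, carried by the B cell gene Ms4a1 (13.09 on NCD1); NCD1 was also the array with the highest mean of the 9 genes. Of 7 dendritic cell and monocyte markers 1 fell (Cd209a, −2.99 ± 0.31), 0 rose and 2 were below background. Their sums were 15.98 to 17.37 on NCD and 14.68 to 15.84 on HFD arrays. Of 7 adipocyte markers 0 were called and 0 were below background. Their sums, 17.33 to 18.60 on NCD and 16.81 to 17.54 on HFD arrays, overlapped. Smooth muscle, pericytes, endothelium and mesothelium also express immediate early genes, and markers of these cells were present in the samples.

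Within NCD the endothelial and smooth muscle markers ran opposite to the immediate early genes: the scores (mean deviation over the list) were lowest on NCD1, at −0.50 and 0.44, and highest on NCD3, at 1.95 and 2.37. The mesothelial score was highest on NCD1, at 1.23, and 0.69 on both NCD2 and NCD3. With the endothelial score as a covariate, all 9 differences were below 0, at a median of −1.59, and Fosb (−3.38) and Ier2 (−2.47) remained called. With the smooth muscle score, which separated the diets fully, the median was −2.0 and 0 of the 9 were called, in a fit that called 24 genes in all. On HFD1 to HFD3 the endothelial score was −0.02, −1.42 and −1.46, and the smooth muscle score −0.79, −1.57 and −1.82. Both scores thus changed along with diet, and the part of these cells in the falls cannot be told apart from diet here. The part of the mesothelial, fibroblast, mast cell, lymphoid, neutrophil, adipocyte, dendritic cell and monocyte markers in the falls was not tested.

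**Figure D3:**
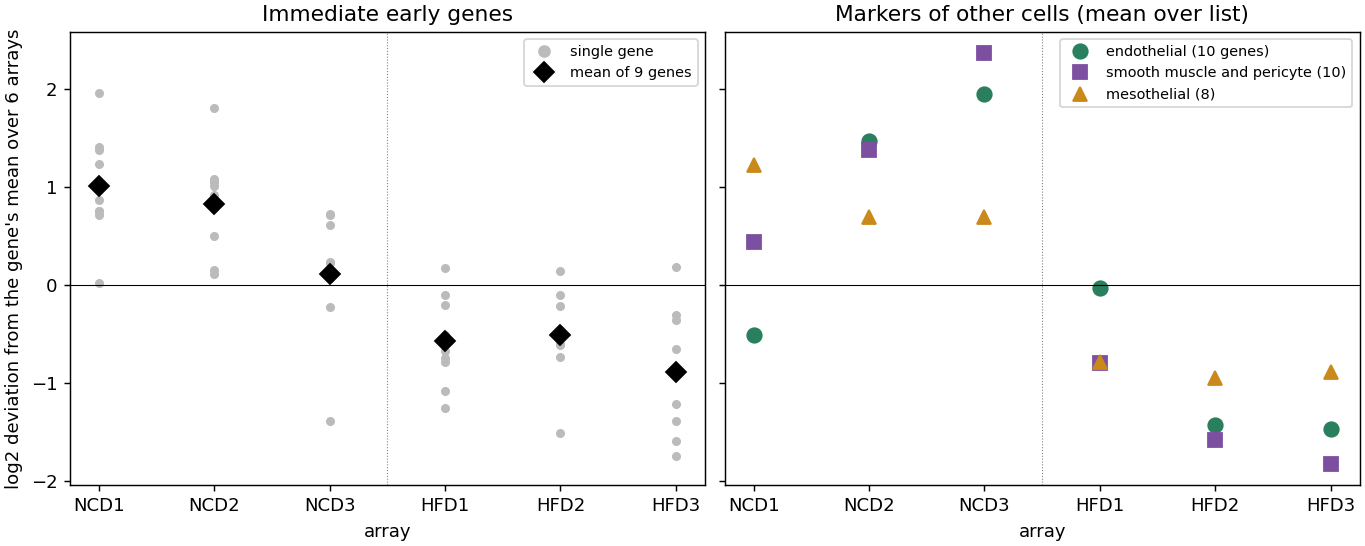
Deviation of log2 expression from each gene's mean over the 6 arrays, by array: left, the 9 genes (grey) and their mean (black diamonds); right, the mean over markers of endothelium, smooth muscle and pericytes, and mesothelium. The means of the 9 genes are 1.01, 0.83 and 0.12 on NCD1 to NCD3, while the endothelial and smooth muscle scores are highest on NCD3.

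Of 13 measured AP-1 partners and Egr family genes on the list, 0 fell, 1 rose and 12 were not called, with a median of −0.02 (4 were lower and 4 higher at an unadjusted p below 0.05). Among all genes tested 2.87% were called lower and 4.96% higher. Without NCD1, 2 fell and 2 rose, and with array weights 3 fell and 1 rose. In those fits 7.68% and 6.43% of all genes were called lower, in turn. The one that rose was Nab2, a corepressor that binds Egr proteins and is itself an Egr target (10.03 ± 0.08 on NCD and 10.89 ± 0.20 on HFD, SD, n = 3; 0.86 ± 0.14, adjusted p = 0.0170). The Nab2 call was lost without NCD2, HFD2 or HFD3 and with the mean of its clusters. Egr2, the Egr protein linked to alternative activation, was at 11.50, 10.89 and 10.09 on NCD and 11.52, 11.82 and 11.78 on HFD arrays. Each HFD array was above each NCD array, though HFD1 and NCD1 were nearly level. Its difference of 0.88 ± 0.34 was not called (adjusted p = 0.174), and it was called without NCD1 (1.21, adjusted p = 0.0269). The small Maf protein Mafk, which also joins AP-1 complexes, was at −0.60 ± 0.17 (adjusted p = 0.0800) and Jdp2, a repressive Jun partner, at −0.49 ± 0.13 (adjusted p = 0.0770).

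Of 19 measured upstream kinases and factors, whose activity is not seen at the transcript level, 0 fell, 1 rose and 18 were not called, with a median of 0.12 (3 were lower and 6 higher at an unadjusted p below 0.05). Among all genes tested 2.87% were called lower and 4.96% higher, so 1 riser of 19 was near the share of all genes. Without NCD1, 2 fell and 2 rose, and with array weights 0 fell and 3 rose. In those fits 7.68% and 6.43% of all genes were called lower, in turn. The riser was Map2k3, a kinase that activates p38 (0.67 ± 0.13, adjusted p = 0.0284), and this call was lost without any 1 array other than NCD1. Srf, whose product binds CArG boxes, was at 0.21 ± 0.17 (adjusted p = 0.515), and the ternary complex factor Elk4 at −0.68 ± 0.22 (adjusted p = 0.121).

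Immediate early genes outside the AP-1 and Egr families fell as well. Of 22 such genes and feedback regulators, 10 fell, 0 rose and 12 were not called (14 were lower and 2 higher at an unadjusted p below 0.05). All HFD arrays lay below all NCD arrays for 15 of them, and above for 1, Gadd45b (1.08 ± 0.41, adjusted p = 0.171). Over all genes 2.87% were called lower, and 13.0% had all HFD arrays below all NCD arrays. The median of the list, which was chosen with earlier results of these data known, was −1.0. Those with the smallest adjusted p were the Krüppel-like factor Klf4 (−2.43 ± 0.21), the cytokine signalling inhibitor Socs3 (−1.27 ± 0.13), Klf2 (−1.80 ± 0.19), the antiproliferative gene Btg2 (−1.60 ± 0.19), the phosphatase Dusp1 that switches off p38 and Jun kinases (−0.89 ± 0.13) and the kinase Sgk1 (−1.04 ± 0.17). Within NCD, Socs3, Btg2 and Dusp1 were lowest on NCD3, as were most genes of the group. Klf4 (12.06, 12.40 and 12.79), Klf2 (13.83, 14.02 and 14.05) and Sgk1 (11.71, 12.16 and 12.18) were instead highest on NCD3. The endothelial and smooth muscle scores were highest there too. With the smooth muscle score as a covariate, which separated the diets fully, none was called, in a fit that called 24 genes in all. Klf4 was then at −1.41, Klf2 at −1.29 and Sgk1 at −0.33. Socs3 was at −1.72, Btg2 at −1.97 and Dusp1 at −1.14. As the score changed along with diet, these values cannot tell the part of such cells apart from diet for any of these genes. The number of the 22 genes that fell was 4 without NCD2, HFD2 or HFD3 and 6 without HFD1, and 14 without NCD3. Without NCD2, HFD2, HFD3, HFD1 and NCD3 in turn, 0.524%, 0.415%, 0.411%, 1.05% and 2.85% of all genes were called lower. Nr4a1, an orphan nuclear receptor of the same wave, was at 16.02, 15.59 and 13.06 on NCD and 14.23, 14.08 and 13.47 on HFD arrays. Its NCD arrays ranged across the HFD values, as those of Atf3 did, and its difference of −0.97 ± 0.74 was not called (adjusted p = 0.498), though it was called without NCD3 (−1.88, adjusted p = 0.0226).

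**Figure D4:**
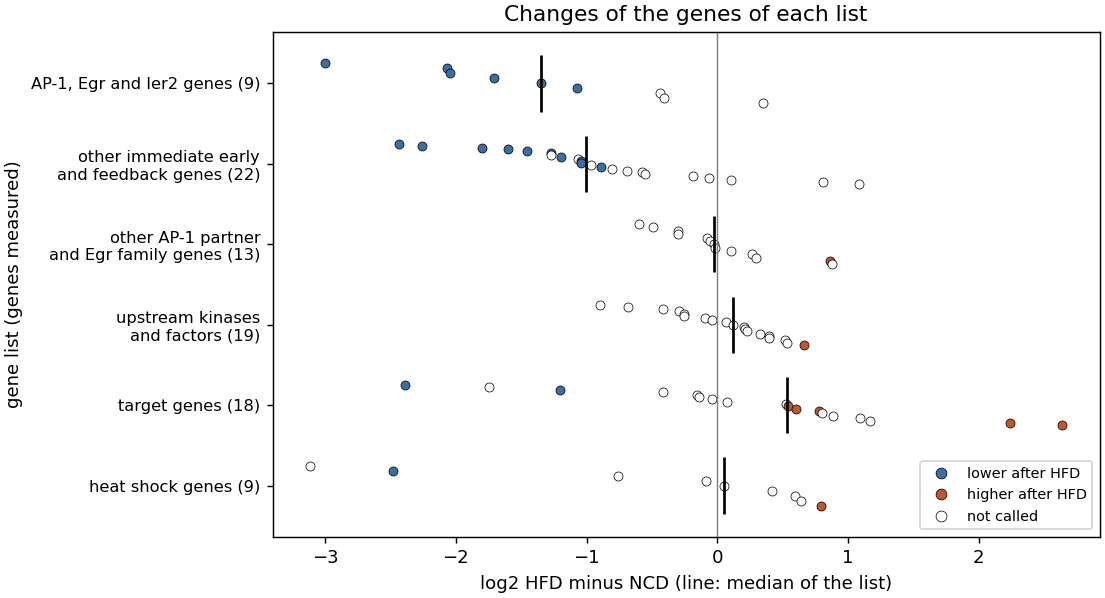
Log2 difference (HFD minus NCD) of every measured gene of 6 lists; filled points are genes called lower (blue) or higher (orange), open points were not called, and lines are medians. The medians of the AP-1, Egr and Ier2 genes (−1.35) and of the other immediate early genes (−1.0) lie below those of the remaining lists (−0.02 to 0.53).

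Genes known as AP-1 or Egr targets did not move one way. Of 18 measured, 5 rose, 2 fell and 11 were not called, with a median of 0.53, and 2 had a mean below background. The shares of all genes were 4.96% called higher and 2.87% called lower. The urokinase gene Plau, a classical AP-1 target, rose by 2.64 ± 0.17 (adjusted p = 0.00199) and the collagenase gene Mmp13 by 2.24 ± 0.21 (adjusted p = 0.0047), both called without each array in turn. The growth factor Vegfa rose by 0.78 ± 0.12. The protease inhibitor Timp1 and the stromelysin Mmp3 were called higher but had a mean below background, so the sizes of their changes are uncertain; with genes below background dropped, 3 genes of the list rose. The gelatinase gene Mmp9 fell by 2.39 on the log2 scale (adjusted p = 0.0266), a call lost without NCD2, NCD3, HFD1 or HFD2. The number that rose was 2 without NCD2 or HFD3 and 3 without HFD2. The number that fell was 0 without NCD2, HFD1 or HFD2 and 1 without NCD3 or HFD3. Without NCD2, NCD3, HFD1, HFD2 and HFD3 in turn, 0.524%, 2.85%, 1.05%, 0.415% and 0.411% of all genes were called lower. Tnf, Il6, Il1b and Ptgs2 were not called, with SDs of 1.60 to 2.44 over the NCD arrays. Over the HFD arrays the SDs were 0.21 (Tnf), 0.56 (Il6), 1.64 (Il1b) and 1.27 (Ptgs2). Il1b (15.39) and Ptgs2 (13.20) were highest on HFD3, the array with the high neutrophil marker sum.

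Heat shock genes, a second class that responds to handling of cells, were mixed. Of 9 measured, 1 fell, 1 rose and 7 were not called, with a median of 0.05. The shares of all genes were 2.87% called lower and 4.96% called higher. The one that fell was Hspb1, a small chaperone also made by muscle cells (−2.48 ± 0.45, adjusted p = 0.0264). Hspb1 was at 9.91, 11.58 and 11.61 on NCD and 8.75, 8.37 and 8.54 on HFD arrays. The one that rose was the co-chaperone Bag3 (0.79 ± 0.15, adjusted p = 0.0299). Both calls were lost in at least 4 of the 6 fits without 1 array. Hspa1a, the inducible heat shock protein, was at 13.28, 14.57 and 11.59 on NCD and 10.81, 10.61 and 8.68 on HFD arrays. NCD3 and HFD3 were again the lowest of their diets, and the difference of −3.11 ± 0.86 was not called (adjusted p = 0.0798). Handling times of the pools were not given in the labels, and their part in these differences was not tested.

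**Figure D5:**
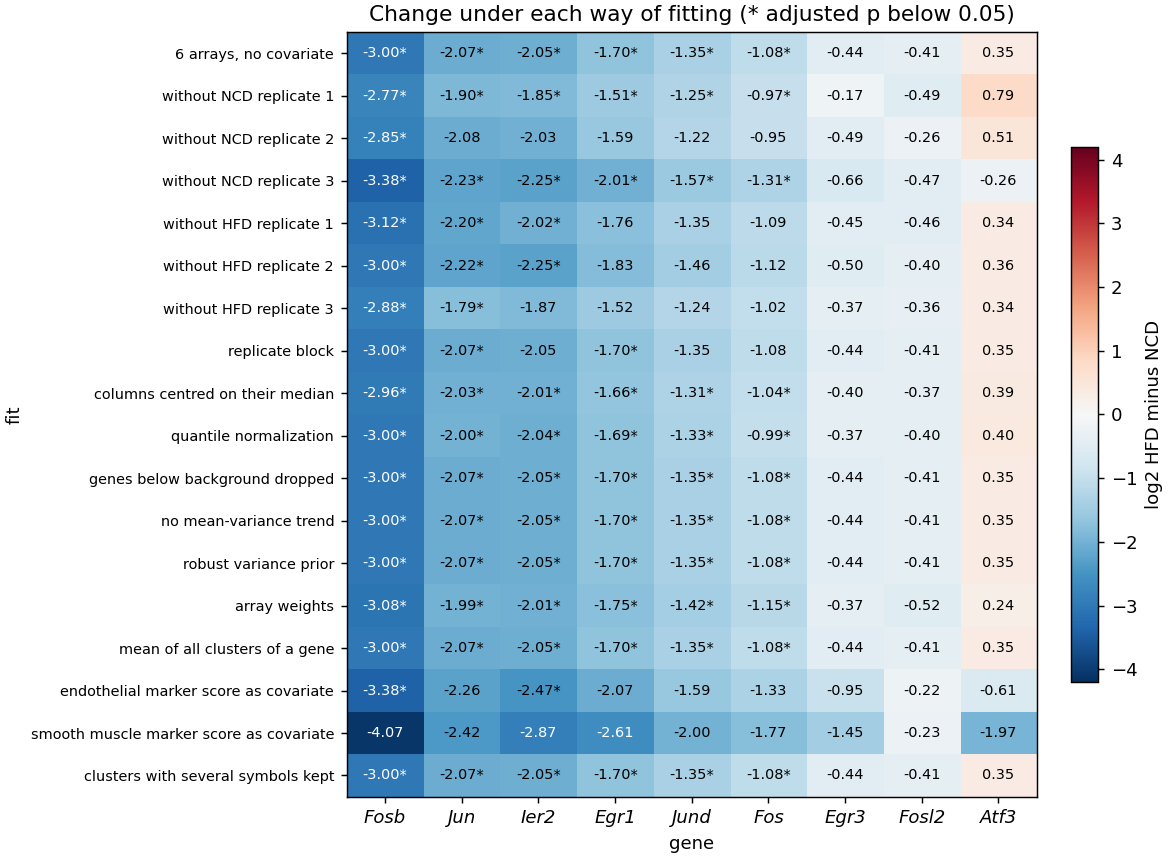
Log2 difference (HFD minus NCD) of the 9 genes (columns) in the fit to all 6 arrays and in 17 other fits (rows); the colour scale is centred on 0 and asterisks mark an adjusted p below 0.05. The 6 called genes are below 0 in each fit shown, and Atf3 turns below 0 without NCD3 and with either marker score.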

How the data were processed

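Log2 expression values were deposited by the authors, 1 column per pool and array (100 ng of RNA each, per the labels). The submitters' processing notes name RMA, Transcriptome Analysis Console 3.1.0.5 and Affymetrix Expression Console 1.4.1.46, with no role or order; RMA options and the genome build are not given in the sources used here. There is no read depth on arrays, so precision depends on their number and on the spread between pools. Differences had a median standard error of 0.118 over all genes. Those of the 9 genes were larger, from 0.157 (Fosl2) to 0.495 (Atf3).

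The 6732 control probe sets were left out. Of 65956 clusters, 30604 had 1 gene symbol, 2146 several and 33206 none, and 827 symbols were updated by Entrez identifier. Genes were named by 1-symbol clusters and the brightest cluster was kept per gene, which gave 30142 genes. Background (6.23) is the mean over arrays of the 95th percentile of 23 antigenomic probe sets; 14395 genes had a mean below it and were kept. Limma 3.58.1 (eBayes with a mean-variance trend, two-sided) in R 4.3.3 compared 3 HFD with 3 NCD arrays, with Benjamini-Hochberg adjustment over all genes, and was tested on simulated data. The titles call the samples biological replicates.

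The alternatives were leaving out each array, the replicate number as a block, median centring, quantile normalization, dropping genes below background, other variance models, array weights, averaging clusters and covariates from marker scores; keeping clusters with several symbols was added after the data were seen. The 10 genes and the lists were chosen with earlier results of these data known. The text names all 10 genes, from each list up to 6 called genes of smallest adjusted p, and the 8 genes nearest to the group's mean profile. Other list genes and Egr2, Nr4a1, Mafk, Jdp2, Srf, Elk4 and Hspa1a were chosen after their values were seen. List genes without a cluster of their own were not analysed here. Promoters came from RefSeq (GRCm38.p6). Figures used matplotlib 3.10.9.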

Additional observations from a re-analysis of the deposited data

How the results depend on the processing

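The sign of the 6 called genes (Fos, Fosb, Jun, Jund, Egr1, Ier2) was the same in all 17 alternatives, and all 6 stayed called under median centring, quantile normalization, a background filter, both other variance models, array weights, averaged clusters and clusters with several symbols kept. Without 1 array, 1 to 6 of the 9 genes were called (1 without NCD2, 3 without HFD1 or HFD2, 2 without HFD3), 442 to 4713 of all genes and 4 to 14 of the other immediate early genes. Such fits have fewer residual degrees of freedom. Array weights called 4282 genes. With the endothelial score 2 of the 9, 650 of all genes and 5 of the other immediate early genes were called; with the smooth muscle score 0, 24 and 0. Atf3 ran from −0.26 (without NCD3) to 0.79 (without NCD1) over fits without 1 array, and was at −0.61 with the endothelial and −1.97 with the smooth muscle score, and Egr2 to −0.87 with the latter; the cause was not tested. The titles give both diets replicate numbers 1 to 3. Deviations of same-numbered arrays from their diet means had r = −0.55, −0.21 and −0.20 over genes above background. Arrays of unlike number were not compared, so these values cannot tell whether same-numbered pools were prepared together. With the replicate block, 3 of the 9 (Fosb, Jun, Egr1), 144 of all genes and 1 of the other immediate early genes were called. Egr3 lay near background, which limits the size of any change.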

Other observations

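The 8 genes outside the group whose centred levels lay closest to its mean profile over the 6 arrays were Ms4a8a, Bmp2, Ednrb, Arhgef3, BC035044, Ssh2, Marco and Nr4a3, with root mean square differences of 0.08 to 0.14 on the log2 scale. They were chosen for this likeness, so their own differences are a description. Ednrb, the endothelin B receptor, had levels of 15.71, 15.69 and 15.06 on the NCD arrays and 14.29, 14.31 and 13.73 on the HFD arrays, each in replicate order. Marco, a scavenger receptor of macrophages, was at 10.92, 10.39 and 9.81 on NCD and 8.98, 9.26 and 8.63 on HFD arrays. Bmp2, a growth factor of the bone morphogenetic protein family, was at 8.29, 8.0 and 7.39 on NCD and 6.78, 6.76 and 6.59 on HFD arrays. Nr4a3 is itself an immediate early gene and was at 8.70, 8.16 and 7.57 on NCD and 6.64, 6.90 and 6.50 on HFD arrays. In each of these 4 genes NCD3 and HFD3 were the lowest arrays of their diets.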
